A study of Drosophila melanogaster with 8 samples.

Results

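Peaks of phosphorylated p38 (P-p38) on the X chromosome of Drosophila S2 cells were taken from 4 deposited peak lists and described with and without oxidative stress. Every peak on X whose summit lies below 22 Mb of genome build dm6 was included, a position limit that uses no measured value. The rule gave 1025 peaks of 17927 in the 4 lists, and 17755 of those lie on the 6 arms (X, 2L, 2R, 3L, 3R and 4). H2O2 cells were wild-type S2 cells kept for 30 min at 25 ºC with 10 mM H2O2, and control cells were wild-type S2 cells that received medium alone in equal volume. Each group has 2 immunoprecipitated libraries, numbered replicates 1 and 2, and 4 input samples, which come without a list of peaks, were not used. All libraries come from 1 established cell line, no transgene or selection is named, and nothing in the labels says that replicates were separate cultures, and permutation p-values then hold the spread between these samples only, which may be technical. Peak lists hold no expression values, so the identity of the line could not be checked against marker genes.

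p38 is a stress-activated MAP kinase that becomes active when a MAP kinase kinase phosphorylates it, and in flies that upstream kinase is encoded on X by licorne (lic). Active p38 phosphorylates transcription factors and chromatin-bound proteins, and chromatin immunoprecipitation with sequencing (ChIP-seq) of P-p38 maps where the active kinase or its complexes lie on DNA. S2 cells are an embryonic, haemocyte-like line of male origin, in which the dosage compensation complex, guided by the roX1 and roX2 RNAs that X itself encodes, raises transcription of X-linked genes.

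H2O2 replicates 1 and 2 held 186 and 167 X peaks, against 393 and 279 in control replicates 1 and 2. The whole lists were longer in H2O2 cells on average only. They held 6434 and 4019 peaks on the 6 arms in H2O2 libraries, against 4314 and 2988 in control libraries. H2O2 replicate 2 thus lay below control replicate 1. The sources used here do not give the number of reads per library, and intervals below are Wilson 95% intervals of shares and cover counting error only. The peaks next to the limit were weak on its inner side. The last peak below 22 Mb was 203 and 266 bp wide in H2O2 replicates 1 and 2, against 230 and 214 bp in control replicates 1 and 2, and stood at fold percentile 11.8 and 16.3, against 10.7 and 33.5. The first peak beyond it was 437 and 299 bp wide in the H2O2 libraries, against 336 bp in control replicate 1, at fold percentile 94.9 and 86.7, against 44.1, and control replicate 2 had no peak there. A fold percentile is the rank of the authors' fold enrichment within its own list over the 6 arms, where 100 is the highest.

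X carried a smaller share of the peaks after H2O2 than in control cells, and it carried fewer peaks per megabase than the other 5 arms pooled in every library. Chromosome 4, 1 of those arms, was below X in all 4 libraries, with 2.36 and 2.36 peaks per megabase in H2O2 libraries, against 7.08 and 7.86 in control libraries. X peaks made up 2.89% (2.51 to 3.33) and 4.16% (3.58 to 4.82) of the arm peaks in H2O2 replicates 1 and 2, against 9.11% (8.29 to 10.0) and 9.34% (8.35 to 10.4) in control replicates 1 and 2. The control libraries lay close together and both H2O2 libraries lay below them without overlap. The mean share was 3.52% ± 0.894 in H2O2 cells and 9.22% ± 0.161 in control cells (SD, n = 2 each), and the exact two-sided permutation test over libraries gave p = 0.33, the smallest that 2 against 2 libraries allow. No comparison of the groups below can therefore pass 0.05. In peaks per megabase, X held 8.45 and 7.59 in H2O2 libraries, against 17.9 and 12.7 in control libraries. The other 5 arms without their centromere-proximal parts, called the distal other arms below and made of 2L below 22 Mb, 3L below 23 Mb, 2R from 5.7 Mb, 3R from 4.2 Mb and all of 4, held 46.5 and 33.0 peaks per megabase in H2O2 libraries, against 36.2 and 25.7 in control libraries. X density divided by that of the distal other arms was 0.182 and 0.230 in H2O2 libraries, against 0.494 and 0.493 in control libraries. Against the whole of the other 5 arms it was 0.150 and 0.218 in H2O2 libraries, against 0.502 and 0.515 in control libraries. The amount of X DNA in each library, which the inputs would show, was not analysed here.

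By group averages, the lower H2O2 density was not found on the 4 large autosomal arms. With the 2 libraries of a group averaged, X had 8.02 peaks per megabase in H2O2 cells and 15.3 in control cells, a ratio of 0.525. The ratio of H2O2 to control density in the distal parts was 1.38 on 2L, 1.39 on 2R, 1.39 on 3L and 1.09 on 3R. Chromosome 4, a short and largely heterochromatic arm, gave 0.316 from 3 and 3 peaks in H2O2 libraries, against 9 and 10 in control libraries. By these averages X and chromosome 4 lay below 1 and the 4 large arms above it, as a description of 2 libraries per group. Single libraries of the groups overlapped on 2R, 3L and 3R. There H2O2 replicate 2 held 42.0, 33.6 and 31.8 peaks per megabase, against 43.7, 35.0 and 40.7 in control replicate 1. On 2L it held 27.9 against 26.8.

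**Figure D1:**
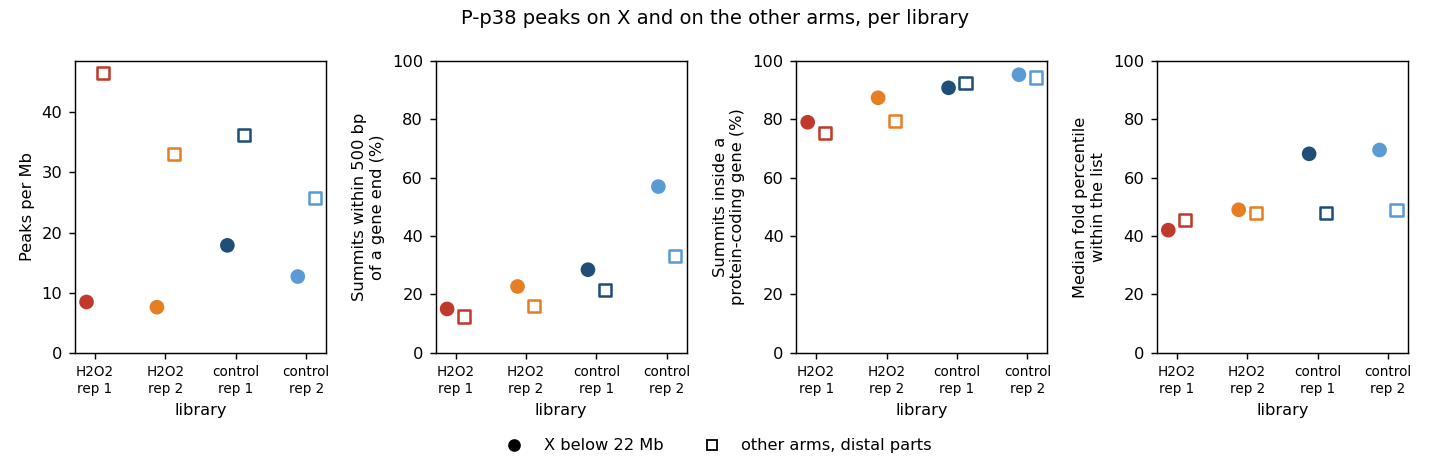
Peaks per megabase, share of gene-end summits (at most 500 bp from an end of a protein-coding gene), share of summits inside such genes and median fold percentile, for X below 22 Mb (filled circles) and the distal other arms (open squares) in each of the 4 libraries. X lies below the pooled distal other arms in density in every library, and in the deposited lists its median fold percentile is 42.1 and 49.0 in H2O2 libraries, against 68.2 and 69.5 in control libraries.

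X peaks were narrower in H2O2 libraries than in control libraries. Median width was 306 and 300 bp in H2O2 replicates 1 and 2, against 358 and 419 bp in control replicates 1 and 2, with means of 303 ± 4.24 bp in H2O2 cells and 388.5 ± 43.1 bp in control cells (SD, n = 2 each; exact permutation p = 0.33). Peaks wider than 1000 bp were 3.23% and 4.79% of X peaks in H2O2 libraries, against 12.5% and 13.6% in control libraries. Together the X peaks covered 78.2 and 74.3 kb in H2O2 libraries, against 233.2 and 172.0 kb in control libraries. The groups did not overlap in any of these measures. The widest X peak measured 4522 and 4067 bp in H2O2 libraries, both over the actin gene Act5C, against 6550 bp over Unc-76 in control replicate 1 and 4875 bp over the ribosomal protein gene sta in control replicate 2. Distal other arms had median widths of 294 and 271 bp in H2O2 libraries, against 337 and 365 bp in control libraries, so that X peaks were wider than theirs by 12, 29, 21 and 54 bp in H2O2 replicates 1 and 2 and control replicates 1 and 2 (mean 29, 4 of 4 libraries, exact sign-flip permutation p = 0.13, the smallest that 4 libraries allow). Without control replicate 2 the group difference in median width on X shrank to -55 bp, against -85.5 bp with it.

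**Figure D2:**
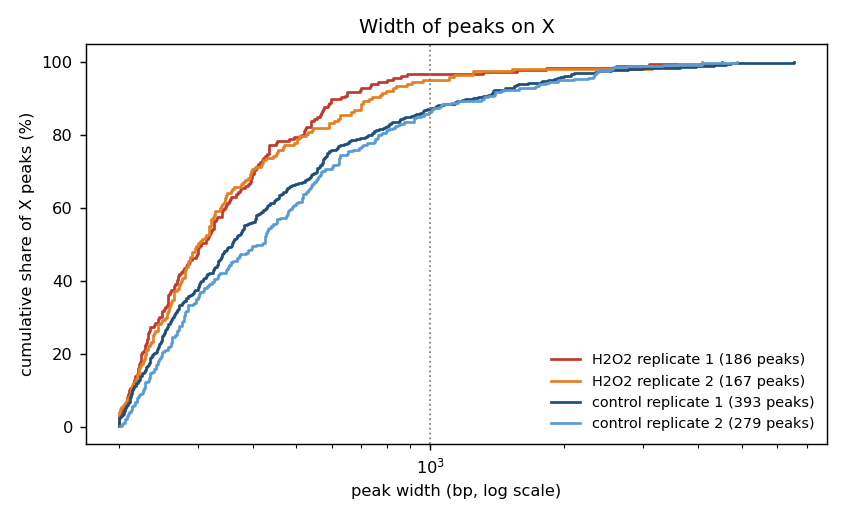
Cumulative share of X peaks (y axis, percent) by peak width (x axis, bp, log scale) in the 4 libraries, with a dotted line at 1000 bp. Both H2O2 curves lie left of both control curves over most widths, and 12.5% and 13.6% of control X peaks lie beyond the line, against 3.23% and 4.79% of H2O2 X peaks.

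By rank within the deposited lists, X peaks stood lower in H2O2 libraries than in control libraries. The median fold percentile of X peaks was 42.1 and 49.0 in H2O2 libraries, against 68.2 and 69.5 in control libraries (means 45.6 ± 4.94 and 68.9 ± 0.925, SD, n = 2 each; exact permutation p = 0.33). With every list limited to its 2988 highest folds the difference between groups was -4.53 points, against -23.3 for the lists as deposited, and the groups overlapped (exact permutation p = 0.667). That value keeps each peak's percentile from its full list, which lifts the median of a list that loses its low peaks. With percentiles ranked again among the peaks kept, an alternative chosen after seeing the data, the difference was -20.6 points (exact permutation p = 0.33). Distal other arms had 45.5 and 47.9 in H2O2 libraries, against 47.8 and 48.8 in control libraries. X minus the distal other arms was -3.42 and 1.17 percentile points in H2O2 libraries, against 20.4 and 20.7 in control libraries. Over the 4 libraries the mean difference was 9.72 points with X higher in 3 of 4 (exact sign-flip permutation p = 0.375), and against the whole other arms it was 7.99 points with X higher in 2 of 4 (exact p = 0.5). The share of X peaks with a deposited q of 1e-05 or less was 7.53% (14 peaks) and 13.2% (22 peaks) in H2O2 libraries, against 33.8% (133 peaks) and 40.9% (114 peaks) in control libraries. Among those peaks alone the order of the groups turned, with a median percentile 7.19 points higher in H2O2 cells, or 12.1 points when ranked again among them. The highest fold on X was 3.24 and 3.66 in H2O2 libraries, over white (w), against 6.22 over Act5C in control replicate 1 and 6.58 over Chchd2, a gene of the mitochondrial intermembrane space, in control replicate 2.

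Most X summits lay in protein-coding genes, and fewer of them lay at gene ends after H2O2. Protein-coding genes held the summits of 79.0% and 87.4% of X peaks in H2O2 libraries, against 90.8% and 95.3% in control libraries, and such genes cover 74.2% of the bases. Gene-end summits, those at most 500 bp from the start or end of a protein-coding gene, made up 15.1% (28 peaks) and 22.8% (38 peaks) in H2O2 libraries, against 28.5% (112 peaks) and 57.0% (159 peaks) in control libraries. These windows take 14.6% of the bases, so the share over that of the bases was 1.03 and 1.55 in H2O2 libraries, against 1.95 and 3.89 in control libraries. Neither inside a gene nor near an end lay 17.7% and 10.8% in H2O2 libraries, against 2.54% and 2.87% in control libraries. Means were 83.2% ± 5.93 in H2O2 cells and 93.1% ± 3.18 in control cells for summits inside genes, and 18.9% ± 5.45 in H2O2 cells and 42.7% ± 20.1 in control cells for gene ends (SD, n = 2 each; exact permutation p = 0.33 for both). Control replicate 2 set the size of the second difference, which was -9.59 percentage points without it and -38.1 without control replicate 1, against -23.8 with all libraries. The first difference was -5.66 points without H2O2 replicate 1, against -9.86 with all libraries, and at q of 1e-05 or less it turned to 1.94 points. It was -5.91 points with lists of equal length and -19.2 points with no limit on X. The window takes in starts and ends of transcripts alike, because the gene table used here gives no strand.

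In every library X summits lay at gene ends more often than those of the distal other arms. The distal other arms had 12.5% and 16.1% of summits near an end in H2O2 libraries, against 21.7% and 33.3% in control libraries, and 17.7% of their bases lie in these windows. X was higher by 2.58 and 6.66 percentage points in H2O2 libraries, against 6.84 and 23.7 points in control libraries (mean 9.95, 4 of 4 libraries, exact sign-flip permutation p = 0.13). For summits inside genes the difference was 3.82 and 8.04 points in H2O2 libraries, against -1.61 and 0.979 points in control libraries (exact p = 0.375).

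X peaks were spread unevenly along the chromosome, and the uneven parts differed between the groups. Of 22 bins of 1 Mb, both H2O2 counts lay below both control counts in 15 and above them in 2. Counts also carry the smaller number of X peaks in H2O2 libraries. As shares of each library's X peaks, both H2O2 values lay below both control values in 12 bins and above them in 4. The bin from 16 to 17 Mb, with 125 protein-coding genes, had 0 and 0 peaks in H2O2 libraries, against 20 and 18 in control libraries, and the bins starting at 9, 10 and 12 Mb also had no H2O2 peak. No bin lacked a control peak. The bins with higher H2O2 counts were 14 to 15 Mb, with 14 and 12 peaks in H2O2 libraries against 8 and 5 in control libraries, and 20 to 21 Mb, with 23 and 19 in H2O2 libraries against 14 and 10 in control libraries. H2O2 libraries had most peaks from 3 to 4 Mb, 39 and 33 against 39 and 19 in control libraries, in a bin with 55 protein-coding genes. Spearman's rho over the 22 bins, as a description, was 0.890 between the H2O2 libraries, 0.716 between the control libraries and 0.466 to 0.677 between libraries of different groups. With the number of protein-coding genes in a bin it was 0.0702 and 0.112 in H2O2 libraries, against 0.424 and 0.627 in control libraries. Bins of 1 chromosome share their libraries and neighbours and are not replicates.

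**Figure D3:**
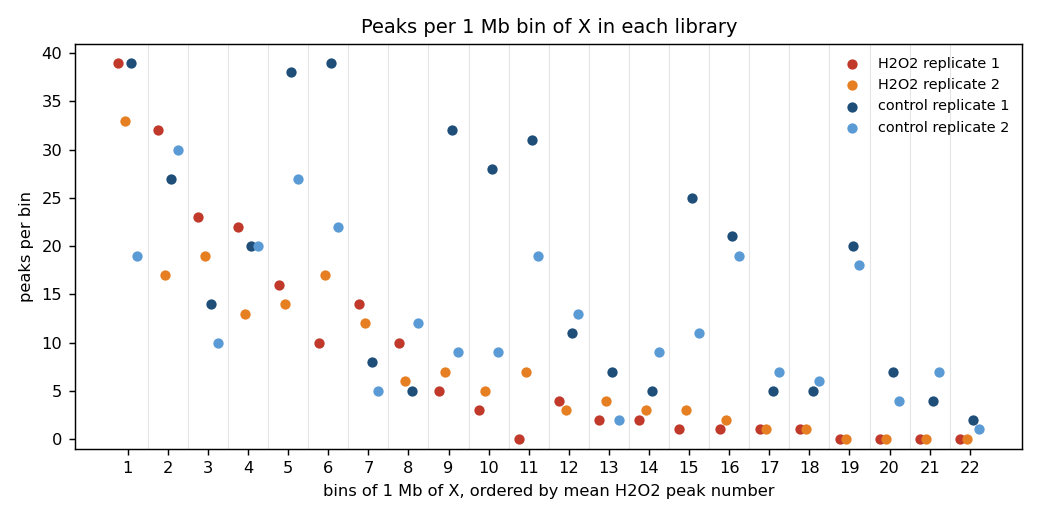
Peaks per 1 Mb bin of X (y axis, number of peaks) in the 4 libraries, with the 22 bins placed along the x axis by falling mean H2O2 count, an order that itself makes the H2O2 points fall from left to right. The H2O2 points lie near 0 in the right part of the plot, where control points still reach 20 and 18 in the bin from 16 to 17 Mb.

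At a finer scale the fullest places of 1 H2O2 library were also full in the other. Of 220 bins of 100 kb, 45 and 51 held a peak in H2O2 libraries, against 96 and 107 in control libraries, and a filled bin held on average 4.13 and 3.27 peaks in H2O2 libraries, against 4.09 and 2.61 in control libraries. Lists with fewer X peaks fill fewer bins, so the number of filled bins is no measure of gathering. The 10 bins with most peaks in H2O2 replicate 1, which are 4.55% of the length, held 34.1% of the X peaks of H2O2 replicate 2, against 11.5% and 11.5% of those of control replicates 1 and 2. The 10 fullest bins of H2O2 replicate 2 held 52.2% of the X peaks of H2O2 replicate 1, against 15.5% and 13.6% in control replicates 1 and 2. For control cells, the 10 fullest bins of replicate 1 held 18.6% of the X peaks of replicate 2, and those of replicate 2 held 23.4% of the X peaks of replicate 1.

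The fullest H2O2 bin, 15.1 to 15.2 Mb, had 25 and 9 peaks in H2O2 libraries, against 2 and 4 in control libraries. CG43737 and CG9095 lie in it. CG43737 held 9 and 5 summits in H2O2 libraries, against 0 and 2 in control libraries. Next came 20.2 to 20.3 Mb, with 13 and 13 peaks against 5 and 2, which holds part of the Sdic cluster of sperm dynein intermediate chain copies together with obst-A and Inx6. Sdic copies are nearly identical and reads from them may not be separable. Another, 3.5 to 3.6 Mb, had 15 and 6 peaks in H2O2 libraries against 3 and 4 in control libraries and holds DIP-alpha, an immunoglobulin-superfamily gene of neurons, and AstA-R1, an allatostatin receptor gene. AstA-R1 held 7 and 4 summits in H2O2 libraries, against 0 and 0 in control libraries. DIP-alpha held 9 and 3 in H2O2 libraries, against 3 and 4 in control libraries, so that H2O2 replicate 2 was not above the control libraries there. Of long genes elsewhere, ec had 11 and 5 summits in H2O2 libraries against 5 and 0 in control libraries, the actin-bundling gene forked (f) had 5 and 4 against 1 and 0, and the scaffold gene Grip had 5 and 2 against 0 and 0. CG14207 had 8 summits in H2O2 replicate 2 and 0 in the other 3 libraries.

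Control peaks gathered over other genes. Rip11, which encodes an effector of the recycling GTPase Rab11, had 0 and 0 summits in H2O2 libraries, against 6 and 11 in control libraries. Unc-76, an axonal transport gene, had 0 and 0 against 6 and 6, and CG5004 had 0 and 0 against 10 and 2. Chc, the clathrin heavy chain, had 0 and 2 in H2O2 libraries against 6 and 5 in control libraries. Moesin (Moe), which links actin to the membrane, had 0 and 0 in H2O2 libraries against 9 and 1 in control libraries. Genes of this and the preceding paragraph were taken from the 10 with most summits in each group and so were chosen by the counts given. Myc, a growth regulator, appeared in both sets, with 1 and 7 summits in H2O2 libraries, against 12 and 3 in control libraries.

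Merging X peaks that share at least 1 bp gave 727 regions. Of these 552 were called in 1 library, 135 in 2 libraries, 27 in 3 libraries and 13 in all 4. H2O2-only regions, those with a peak in each H2O2 library and in no control library, numbered 25, or 3.44% (2.34 to 5.03). Control-only regions, with a peak in each control library and in no H2O2 library, numbered 82, or 11.3% (9.18 to 13.8). On the distal other arms the classes were near equal in size, with 571 H2O2-only regions (6.003%) and 588 control-only regions (6.18%) of 9512. Regions called in all 4 libraries were 1.79% of those on X, against 1.44% (137 regions) on the distal other arms. Within H2O2, 29.6% of the X peaks of replicate 1 met one of replicate 2 and 33.5% did so in the other direction. Within control the shares were 34.6% and 43.7%. Of the X peaks of H2O2 libraries, 14.5% to 33.5% overlapped a peak of a control library, and of those of control libraries 8.60% to 13.2% overlapped a peak of an H2O2 library. H2O2 replicate 2 thus overlapped control replicate 1 in the same share as it overlapped H2O2 replicate 1.

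The classes differed in width and place. Median width was 410 bp for H2O2-only regions, 785.5 bp for control-only regions and 1846 bp for regions of all 4 libraries. A gene-end summit was present in 4 of 25 H2O2-only regions (16.0%, 6.40 to 34.7), in 50 of 82 control-only regions (61.0%, 50.2 to 70.8) and in 7 of 13 regions of all 4 libraries (53.8%). On the distal other arms these shares were 15.8%, 39.3% and 51.8%. Inside a protein-coding gene lay 24 of the 25 H2O2-only regions and 78 of the 82 control-only regions. Only 1 H2O2-only region (4%) lay neither inside such a gene nor near an end, against 22.9% of the H2O2-only regions of the distal other arms. With a q limit of 1e-05 no H2O2-only region was left (0), equal list lengths left 10, and a single library standing for its group gave 103 or 137 H2O2-only regions and 238 or 327 control-only regions.

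The 13 regions called in all 4 libraries are described from the highest lowest percentile down, except that white comes before AnxB10. Act5C, the cytoplasmic actin gene, carried the region with the highest lowest percentile (X:5900753-5905456, 4704 bp). Where a region holds several peaks of a library, its fold and percentile are those of the highest. Fold at Act5C was 2.55 and 2.41 in H2O2 libraries, against 6.22 and 4.61 in control libraries, at percentiles 99.6 and 98.1, against 100 and 99.4. Act5C was covered over 98.4% and 87.2% in H2O2 libraries, against 95.4% and 87.7% in control libraries, so that peaks of every library spanned most of the gene. Folds are relative to a background that the sources used here do not state and are not levels that can be compared between libraries. Actin genes share much of their coding sequence, and reads may be split among copies.

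Ubi-p5E, a polyubiquitin gene, carried a pair of such regions, at X:6278293-6279457 with a lowest percentile of 97.2 and at X:6276615-6277644 with 92.2. In the first of these the percentile was 99.9 and 99.6 in H2O2 libraries, against 99.3 and 97.2 in control libraries. Ubi-p5E consists of repeated ubiquitin units, so the position of reads within it is uncertain. The region over sta, mei-38 and rush (X:1478498-1483372, 4875 bp) was the widest, and its peaks took up 494 and 1404 bp in H2O2 libraries, against 4730 and 4875 bp in control libraries. Pgd, which encodes the NADPH-producing 6-phosphogluconate dehydrogenase, carried a region of 3621 bp (X:2145321-2148941) with peaks over 3101 and 3621 bp of it in H2O2 libraries, against 3107 and 2889 bp in control libraries. Its percentile was 95.8 and 98.8 in H2O2 libraries, against 91.2 and 93.1 in control libraries, and H2O2 libraries were thus the higher ones by rank.

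Hsc70-3, the chaperone of the endoplasmic reticulum, carried 2 regions, X:11804813-11807143 (lowest percentile 88.3) and X:11802770-11804662 (85.9). Peaks covered 43.3% and 44.9% of its body in H2O2 libraries, against 76.8% and 86.7% in control libraries. The actin-monomer-binding gene ciboulot (cib) carried a region of 742 bp (X:4106114-4106855, 72.1). The remaining 5 each had at least 1 library below percentile 30. At white, the eye pigment transporter gene (X:2789921-2793251, which CG32795 and kirre overlap), 3 libraries stood at 100.0, 99.7 and 99.5 and control replicate 1 at 27.5. Peaks there took up 3099 and 3149 bp in H2O2 libraries, against 239 bp in control replicate 1 and 3331 bp in control replicate 2. AnxB10, an annexin gene (29.4), sniffer (sni) with the thioredoxin reductase gene Trxr1 (26.7), CG9581 with CG9578 (5.49) and Gas8 (1.69) made up the rest, where the value is the lowest percentile over the 4 libraries.

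Regions called in 3 of the 4 libraries split by which library lacked the peak. Of the 14 with a peak in 1 H2O2 library and both control libraries, 12 had it in H2O2 replicate 2 and 2 in H2O2 replicate 1. Of the 13 with a peak in both H2O2 libraries and 1 control library, 10 had it in control replicate 1 and 3 in control replicate 2. The first kind had a median width of 1534.5 bp, with 7 gene-end regions, and the second kind 842 bp, with 5 gene-end regions. Chchd2 had the strongest region of the first kind (X:17148877-17150977), with no peak in H2O2 replicate 1 and percentile 98.9 in H2O2 replicate 2, against 98.4 and 99.9 in control libraries. Prx2 came next (X:13329731-13332363), with none and 97.4 in H2O2 libraries, against 89.3 and 99.5 in control libraries. Bcat, IP3K2, Chc, Shmt, the serine hydroxymethyltransferase gene of folate metabolism, and Gclc were others of this kind. In the second kind a further region at w, within kirre (X:2795916-2796864), was the strongest, with percentiles 99.9 and 99.4 in H2O2 libraries, against none and 99.2 in control libraries. Control replicate 1, which held the narrow and low-ranking peak at w described above, thus also lacked this one. CG43737, CG32762, Vinc, SmydA-8, CG5662 and 2 regions of ec were among the rest.

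Control-only regions had a median lowest percentile of 65.8 over all 82, and the 12 named here were picked as the highest, at 91.9 to 97.0. The strongest lay over Cyp1, a cyclophilin gene (X:16318187-16320406, 2220 bp), at percentiles 97.0 and 98.9 of control replicates 1 and 2, with folds of 2.53 and 4.29. CCT6 with its neighbour Mvd (X:15746542-15749182) and CCT2 (X:9089408-9091171), which encode subunits of the cytosolic chaperonin, had lowest percentiles of 97.0 and 94.6. Ribosomal protein genes gave 5 of the 12 strongest: RpL35 with Tre1 (X:5672503-5675028, 96.4), RpS19a (X:16637874-16639326, 96.3), RpL22 (X:762300-765178, 95.9), RpS5a (X:17145793-17148309, 95.5) and RpS10b with CG14220 (X:19597997-19599817, 95.1). Rip11 gave 2, at X:18645181-18647619 (96.0) and X:18635339-18637049 (92.5). The GTPase genes Ran (X:11147301-11148617, 94.6), of nuclear transport, and Cdc42 (X:19697120-19698469, 91.9), of the actin cytoskeleton, completed the 12. All 12 had a gene-end summit. The 3 widest control-only regions did not: a 6550 bp region over Unc-76 (X:2080615-2087164) and regions of 3952 and 3032 bp within Rip11. The Unc-76 region was a peak of 6550 bp in control replicate 1 and 1101 bp under peaks in control replicate 2.

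H2O2-only regions were weaker and mostly lay inside genes away from their ends. The strongest (X:6282806-6283512, 707 bp) lay over CG11700, next to Ubi-p5E, at percentiles 83.7 and 98.98 of H2O2 replicates 1 and 2, with folds of 1.83 and 2.74. Ubi-p5E carried peaks in all 4 libraries, as given above, and whether reads of these neighbours can be separated was not tested. The second H2O2-only region was also the widest (X:19611379-19612971, 1593 bp), with percentiles 71.5 and 70.0. It overlaps the mitochondrial carrier genes Shawn and Tyler. Of CG14207, a small heat shock protein gene, it meets only the last bases, up to 19611413. Its summits in H2O2 replicates 1 and 2, at 19611576 and 19611599, lie beyond CG14207. The other 10 of the 12 strongest had lowest percentiles of 38.4 to 53.9. They lay over CG9095 (2 regions), CG43737, CG15322, ec with CG2901, Gas8, AstA-R1, f and CG4151, and 1 (X:3985824-3986231) lay in no gene, 14667 bp from CG6414. Of these 12, the regions at CG15322 and at CG14207, Shawn and Tyler had a gene-end summit. At AstA-R1 (X:3591784-3592171) the percentiles were 91.5 and 39.7, and at CG4151 (X:5501868-5502217) they were 38.4 and 94.1, so that the 2 H2O2 libraries ranked the same region far apart. Next in width after the region at ec, an H2O2-only region of Grip spanned 770 bp. The median of the lowest percentile was 37.6 over all 25 H2O2-only regions, against 65.8 over the 82 control-only regions and 85.9 over the 13 of all 4 libraries.

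**Figure D4:**
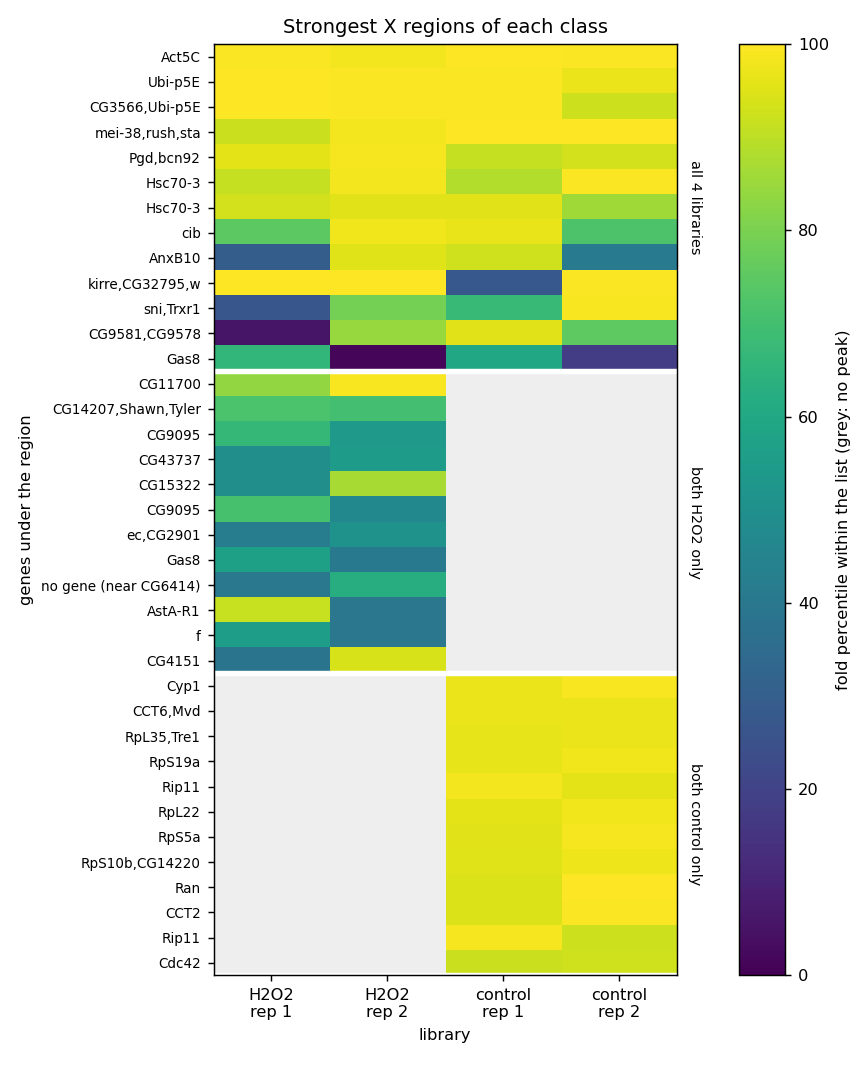
Fold percentile within the list (colour scale, 0 to 100, grey where no peak was called) in the 4 libraries (columns) for the 13 X regions called in all 4 libraries, the 12 H2O2-only regions and the 12 control-only regions with the highest lowest percentile (rows, named by the genes under them). The 12 control-only regions lie between 91.9 and 97.0 at their lowest, and the 12 H2O2-only regions between 38.4 and 83.7. The grey cells follow from how the classes were chosen.

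Few X genes were called at their ends in both H2O2 libraries. A gene counted as called in a library that had a gene-end summit for it. Single libraries called 32 and 44 X genes in H2O2, against 130 and 181 in control, of 2138 protein-coding genes on X, and these are also the counts when 1 library stands for its group. Both H2O2 libraries called 13 X genes (0.608%), where 1.45% of the 13922 protein-coding genes of all arms and 1.61% of those of the other 5 arms were called. Both control libraries called 72 X genes (3.37%), where 3.49% of all genes and 3.53% of those of the other arms were called, so that X lay near the background in control cells and at less than its level in H2O2 cells. Calls made by each H2O2 library but by no control library covered 4 X genes (0.187%), against 0.833% of all genes and 0.955% of those of the other arms. Calls made by each control library but by no H2O2 library covered 58 X genes (2.71%), against 2.61% of all genes and 2.61% of those of the other arms. Neighbouring genes can share a summit, and the 13 and 72 genes rested on 12 and 67 distinct sets of summits.

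The 13 X genes called in both H2O2 libraries were sta, inc, Pgd, SmydA-8, w, cib, CG32762, CG5662, CG14207, Shawn, Tyler, CG9581 and CG9578. The 4 without a call in a control library were CG14207, Shawn, Tyler and CG9581, and the first 3 of these rest on the region described above. CG9581 lies under a region called in all 4 libraries, so its absence in control is one of summit position and not of a peak. All 4 libraries called sta, inc, Pgd, w and cib, 5 genes or 0.234% of X genes, against 0.366% of all genes and 0.392% of those of the other arms. A shared call need not be a shared site, since either end counts. At w the summits of control replicates 1 and 2 lay at 2790984 and 2796368. At Pgd that of H2O2 replicate 1 lay at 2145590 and that of control replicate 1 at 2148283. Bodies covered over 50% or more were those of 4 X genes in both H2O2 libraries (0.187%, against 0.273% of all genes and 0.29% of those of the other arms) and those of 19 X genes in both control libraries (0.889%, against 1.16% of all genes and 1.22% of those of the other arms).

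Ribosomal protein genes were called in control cells and nearly absent from the H2O2 lists. Of the 15 on X, 1 was called in both H2O2 libraries, against 7 in both control libraries, where 0.608% and 3.37% of X genes were called. sta, which encodes the small-subunit protein SA, was the one called in H2O2, at percentiles 91.9 and 98.3 in H2O2 libraries, against 99.8 and 99.8 in control libraries. The other 14 had no H2O2 peak over their bodies and no H2O2 summit near an end. Control libraries called sta, RpL22, RpL35, RpS28b, RpS15Aa, RpL37-1 and RpS5a in both replicates, and control replicate 2 called all 15. RpL37-1 was covered over 0% and 0% in H2O2 libraries, against 100% and 100% in control libraries. RpS19a was covered over 0% and 0% against 95.1% and 100%, and RpS10b over 0% and 0% against 93.5% and 100%, although control replicate 1 had its summit outside the window at both genes. Another 6, RpL36, RpL7A, RpL17, RpS6, RpS14a and RpS14b, had a peak in control replicate 2 alone, at percentiles from 66.7 to 93.0. RpS14a and RpS14b are neighbouring near-identical copies, and reads from them may not be separable. Of the 7 translation factor genes on X, none was called in both libraries of either group.

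Of the 5 chaperone genes of X none was called in both H2O2 libraries, where 0.608% of all X genes were, against 4 in both control libraries, where 3.37% were. A count of 0 of 5 is near the H2O2 background. Cyp1, CCT6 and CCT2 had no peak in H2O2 libraries, and CCT6 was covered over 88.7% and 100% in control libraries. Hsc70-3 was called in H2O2 replicate 1 and in both control libraries. Hsp60A, the mitochondrial chaperonin gene, was called in control replicate 2 alone, at percentile 97.7.

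Of the 10 X genes of NADPH supply and hydrogen peroxide removal, 1 was called in both H2O2 libraries, against 4 in both control libraries, where 0.608% and 3.37% of all X genes were called. No library called the other 6. Pgd was called in all 4. Trxr1, Prx2 and Gclc were each called in H2O2 replicate 2 and in both control libraries. Prx2, a peroxiredoxin gene, was covered over 0% and 36.6% in H2O2 libraries, against 19.3% and 100% in control libraries, and the peaks over the gene itself stood at percentile 97.4 in H2O2 replicate 2, against 46.9 and 99.5 in control libraries. Gclc, the catalytic subunit of the first enzyme of glutathione synthesis, stood at 27.1 in H2O2 replicate 2, against 94.0 and 83.5 in control libraries. Zw, which encodes glucose-6-phosphate dehydrogenase and acts upstream of Pgd in the pentose phosphate pathway, had no peak in any library. The nearest summit lay 53015 and 55653 bp away in H2O2 libraries, against 12208 and 11681 bp in control libraries. GstT3, GstT4, TrxT, dhd and fh had no call either.

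Of the 11 X genes of the MAP kinase list, none was called in both H2O2 libraries, against 2 (18.2%) in both control libraries, where 0.608% and 3.37% of all X genes were called. A count of 0 of 11 is near the H2O2 background. MKP-4, a dual-specificity phosphatase gene and one of these, stood at percentiles 82.6 and 64.5 in control replicates 1 and 2. The p38 kinase kinase gene lic was called in control replicate 2 alone, at percentile 21.2. The JNK kinase kinase gene hep, next to lic, had no peak over it in any library. No gene of this list had an H2O2 peak over its body.

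Cytoskeletal genes of X gave 1 of 14 called in both H2O2 libraries, cib, against 2 in both control libraries, cib and Cdc42. For this list and the others of this paragraph, the background is 0.608% of all X genes in H2O2 and 3.37% in control. Counts of 0 are near the H2O2 background, and each count of 1 is a single gene. Act5C has its summit in mid-gene and so does not count as called, despite the coverage given above. Vinculin (Vinc) was covered over 11.9% and 22.6% in H2O2 libraries, against 75.7% and 0% in control libraries, so that the control replicates differed more than the groups. The polymerase and chromatin list of 20 X genes gave 1 in H2O2, w, against 3 in control, w, CkIIbeta and e(y)3, and w entered that list although its product is a membrane transporter. Of Notch, Wnt and JAK-STAT genes none of 15 was called in H2O2, against 1 in control, armadillo (arm), the fly beta-catenin. Of early transcription factor genes none of 6 was called in H2O2, against 1 in control, Myc, covered over 3.97% and 13.7% in H2O2 libraries, against 52.3% and 9.22% in control libraries.

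Counts for lists of tissue-specific genes lay near the background of 0.608% in H2O2 and 3.37% in control. None of 36 neuronal and none of 19 egg shell, yolk and cuticle genes was called in both libraries of either group. Of 34 chemoreceptor genes none was called in both H2O2 libraries, against 1, Or19b, in both control libraries. The 13 respiratory chain, 2 vacuolar proton pump, 4 haemocyte and 7 ubiquitin and proteasome genes gave no call in both libraries of either group, with Ubi-p5E covered over 40.3% and 65.4% in H2O2 libraries, against 70.7% and 42.1% in control libraries. Over the 17 lists together 4 X genes were called in both H2O2 libraries, against 25 entries in both control libraries.

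**Figure D5:**
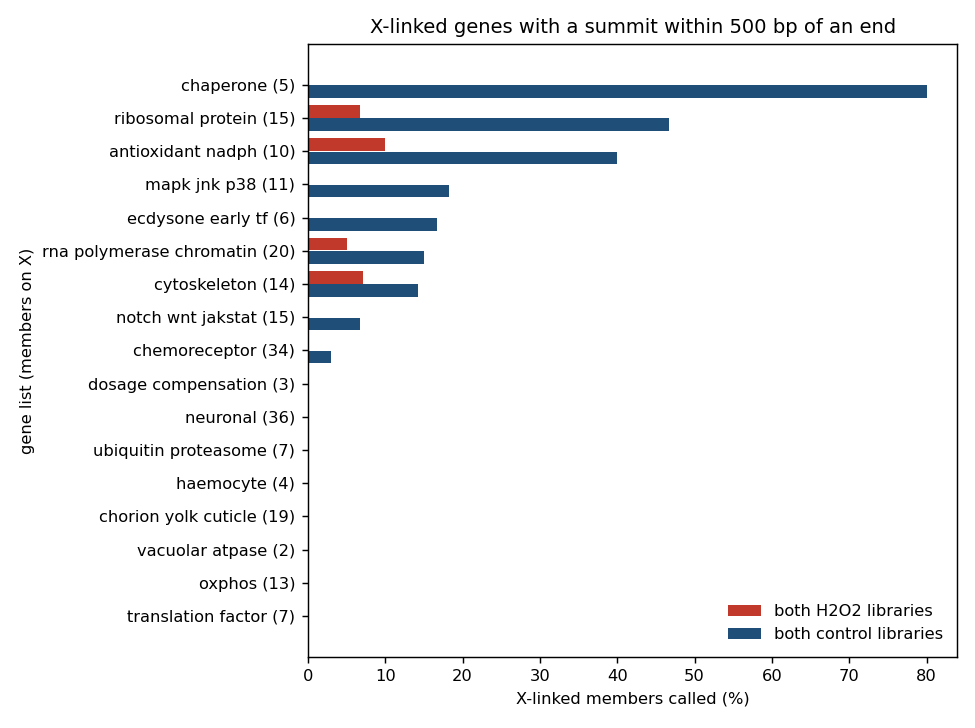
Share of the X-linked members of each of the 17 gene lists (x axis, percent, from 0) with a gene-end summit in both H2O2 libraries (upper bars) and in both control libraries (lower bars), with the number of X-linked members in parentheses. Chaperone, ribosomal protein and antioxidant genes show the longest control bars, 4 of 5, 7 of 15 and 4 of 10, and small lists move in large steps. Of all X genes, 0.608% were called in both H2O2 libraries and 3.37% in both control libraries.

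Of the loci of the roX RNAs, roX2 lay under control peaks and under no H2O2 peak, and roX1 lay under no peak at all. roX2, transcribed from within X as a part of the dosage compensation complex, had no H2O2 peak, and the nearest H2O2 summits lay 221428 and 222809 bp away. In control replicates 1 and 2 peaks covered 24.6% and 43.7% of roX2, at percentiles 98.6 and 66.7 with folds of 2.88 and 1.75. The summit of control replicate 1, at 11580339, also counted as a gene-end summit of the neighbouring gene nod. Control replicate 2 had a summit within roX2, and its summit counted for nod lay at 11580482, beyond the roX2 end at 11580432. For roX1 the nearest summit lay 2169 and 2125 bp away in H2O2 libraries, against 2022 and 18219 bp in control libraries. Of the 3 protein-coding genes of the dosage compensation list on X none was called in both libraries of either group. Of all X genes, 0.608% were called in both H2O2 libraries and 3.37% in both control libraries, and a count of 0 of 3 is near both. Control replicate 2 alone called Sxl, at percentile 85.1, and sesB, a mitochondrial nucleotide carrier gene that entered this list.

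Small nucleolar RNA genes, which guide chemical modification of ribosomal RNA and mostly lie in introns of host genes, lay under control peaks more often than under H2O2 peaks. Of 31 on X, 0 and 2 lay under a peak in H2O2 libraries, against 14 and 24 in control libraries. The control-only region at RpS5a alone spans 6 of them. Of the 2138 protein-coding genes of X, 77 and 90 held a summit in H2O2 libraries, against 174 and 211 in control libraries. Holding a summit is a stricter count than lying under a peak. X peaks also covered more bases in control libraries, 233.2 and 172.0 kb against 78.2 and 74.3 kb. Of 232 long non-coding RNA genes on X, 3 and 4 lay under a peak in H2O2 libraries, against 9 and 10 in control libraries, and none of 24 transfer RNA genes lay under a peak in any library.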

How the data were processed

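Chromatin from sonicated S2 nuclei was immunoprecipitated with an antibody to P-p38 and its DNA sequenced, per the labels' protocols. Picard and MACS2 were used on dm6, per the submitters' processing notes, without versions, options or background library. For every peak the authors deposited a score, a fold (a linear ratio to MACS2's own background estimate), and a p-value and q-value as −log10. The authors' score equals 10 times −log10 p with decimals dropped for 17926 of 17927 peaks. Peaks reached down to a −log10 p of 2.00 to 2.01, and all lists had a median fold of 1.63 to 1.64. Folds were ranked within lists because the background library is not stated.

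Python 3.11.15, pandas 2.3.3 and scipy 1.17.1 were used. Gene positions came from the RefSeq table of Release 6, which lacks strand. Groups were compared by exact two-sided permutation over libraries, and X with other arms by exact sign flips within libraries. Scripts were tested on simulated data. Named regions were the 12 H2O2-only and 12 control-only regions with the highest lowest percentile, all regions of 4 libraries, the 3 widest per class, up to 4 called members per list, and lic, hep, Act5C, roX1, roX2, Hsc70-3, Zw and Pgd. Genes and bins named for their number of summits or peaks, list members named beyond these, the distal arms and the 100 kb bins were picked with values in view. The values of 1 list member are not reported here. Members and all 17 lists were chosen with earlier results of these data known. A planned window at starts only needs strand, and planned promoter motifs need sequences, and neither was run. Alternatives tried were a q limit of 1e-05, equal list lengths, other overlaps, windows and limits, and leaving out each library.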

Additional observations from a re-analysis of the deposited data

Results flagged for a closer look

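X peaks at or beyond 22 Mb, next to the centromere and outside every comparison above, numbered 36 and 13 in H2O2 replicates 1 and 2, against 3 and 0 in control replicates 1 and 2. They drew attention because they are data that the comparisons do not use and both H2O2 counts exceed both control counts. Their median fold percentile was 88.0 and 52.0 in the H2O2 libraries, against 59.3 in control replicate 1. Unplaced scaffolds assigned to X held another 23 and 7 peaks in H2O2 libraries, against 1 and 1 in control libraries. On X this end is thus the opposite of the rest, where both H2O2 counts lay below both control counts, and the difference was not tested. The other 5 arms held 6212 and 3839 peaks in H2O2 libraries, against 3918 and 2709 in control libraries. Without their centromere-proximal parts they held 4361 and 3095, against 3389 and 2412. Those parts thus also held more H2O2 than control peaks, so a higher H2O2 count next to the centromere was not particular to X.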

How the results depend on the processing

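Directions of the differences between groups on X held under equal list lengths, limits of 21 Mb or none, and leaving out each library, but sizes did not. With equal list lengths the difference in median fold percentile was -4.53 points with overlapping groups (exact permutation p = 0.667) by percentiles of the full lists, but -20.6 points when ranked again among the peaks kept, chosen after seeing the data. The difference in summits inside genes was -5.91 points, and with no limit on X the difference inside genes was -19.2 points. Directions turned at q of 1e-05 or less, where the difference in summits inside genes was 1.94 percentage points, that in median fold percentile 7.19 points (12.1 when ranked again), and X minus other arms in width -13.75 bp, while the share on X differed by -9.86 points and width by -187.5 bp. At that threshold H2O2-only regions numbered 0, control-only regions 27 and regions of all 4 libraries 4, genes called were 1 in H2O2 and 24 in control, list members 1 and 13, and the 10 fullest bins of H2O2 replicate 1 held 45.5% of the peaks of H2O2 replicate 2. Lists of equal length gave 10 H2O2-only regions and 8 of all 4 libraries. Control-only regions numbered 42 with summits within 100 bp and 45 with a reciprocal overlap of 50%, and regions of all 4 libraries 4 and 7. With windows of 250 bp, 7 genes were called in H2O2 and 26 in control and list members were 2 and 12, and Gclc turned to 0.5 more of the H2O2 libraries than of the control libraries. With 1000 bp the genes were 33 and 121, and list members in H2O2 were 9. The cause of these changes was not tested.

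Leaving out each library, with the library left standing for its group, gave 28 to 137 H2O2-only regions and 84 to 327 control-only regions. Regions called in every library kept numbered 14 to 25. Genes called were 13 to 44 in H2O2 and 72 to 181 in control, and list members 4 to 9 and 25 to 47. Differences ran from -6.33 to -5.07 percentage points for the share on X, -116 to -55 bp for width and -38.1 to -9.59 points for gene ends. Both groups number their replicates 1 and 2, and no label ties equal numbers to a shared culture or day. Peak names inside the lists do carry the same number for replicate 1 of both groups and another for replicate 2, and no source used here says what it marks. With the number as a replicate block the difference in X share was -5.70 points with an exact p of 0.5, the smallest that 2 pairs allow, and the other differences between groups kept their size with the same p.

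Depth per library is unknown, and 2 libraries per group limit every comparison. An H2O2 peak missing at a gene means that none was listed at the authors' threshold, not that P-p38 is absent.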
